A study of Homo sapiens with 16 samples.

Results

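The 46 genes described here encode the machinery that copies DNA: the origin recognition complex, the licensing factors, the replicative helicase, the polymerases with their clamp and ligase, and the factors that carry chromatin behind the fork. They were taken from a given list of symbols and are 46 of the 60448 gene identifiers measured. All 46 had a mean of at least 0.5 FPKM (fragments scaled by gene length and library total) over the libraries and so were among the 17198 genes tested.

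RNA was sequenced from A549, an established human lung adenocarcinoma line, and from A549/cDDP, its derivative that is labelled cisplatin resistant and was grown in medium containing cisplatin. The 16 libraries form 8 groups of 2. A549/cDDP cells received a gapmer (an antisense oligonucleotide that recruits RNase H) against the long noncoding RNA SCAT7, or a control gapmer, or no transfection, and each of these was kept in cisplatin or in its solvent. A549 cells were not transfected and were likewise kept in cisplatin or solvent. Cisplatin was used at a labelled 15 mM, a unit printed as given and not checked, for 24 h after seeding 35000 cells. Transfected cells had 12 pmol of gapmer and were collected after 48 h, the last 24 h in drug or solvent. A549/cDDP was maintained in the same labelled 15 mM, so its solvent groups had been grown in the drug before. The labels describe the cells as an unsynchronized mixture and do not say whether the 2 libraries of a group came from separate cultures, so each p-value measures the spread between libraries.

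DNA replication starts when the origin recognition complex (ORC) marks origins and CDC6 with CDT1 loads rings of MCM2 to MCM7 around DNA, while geminin (GMNN) holds CDT1 back outside the licensing window. MCM10, CDC45 and the 4 GINS proteins turn the loaded ring into a running helicase. DNA polymerase alpha with primase starts each strand, polymerases delta and epsilon extend it, RFC loads the sliding clamp PCNA, and FEN1 and LIG1 finish lagging-strand fragments. Transcription of many of these genes in proliferating cells is driven by E2F factors and is high from late G1 into S phase, and CDKN1A (p21) is an inhibitor of the kinases that release E2F.

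Promoter letters are shown first, because many members moved together. RefSeq (build GRCh38.p14) gave a window from 250 bases before to 50 after the first listed start for 40 of the 46 members, MCM4, MCM5, GINS4, POLD3, RPA2 and RPA3 not being matched. The 200 bases before the start are printed, 5′ to 3′ on the gene's strand, for the members with the largest fall in cisplatin-treated A549 cells in 4 roles (helicase, chromatin inheritance, polymerases, origin recognition), and for PCNA, which was chosen after its values were seen because it rose. Capitals mark E2F-like letters (TTTGGCGC, TTTCCCGC, TTTCGCGC or TTTGCCGC on either strand) and CCAAT on either strand, and overlapping matches each count. MCM6 is chr2:135876444-135876643 on the minus strand, UHRF1 is chr19:4909301-4909500 on the plus strand and POLA1 is chrX:24693718-24693917 on the plus strand. ORC1 is chr1:52404424-52404623 on the minus strand and PCNA is chr20:5126623-5126822 on the minus strand.

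MCM6: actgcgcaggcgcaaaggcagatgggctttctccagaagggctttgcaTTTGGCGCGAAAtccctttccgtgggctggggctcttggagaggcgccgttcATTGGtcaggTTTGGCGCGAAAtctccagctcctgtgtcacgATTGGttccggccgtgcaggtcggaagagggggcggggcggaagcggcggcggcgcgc
UHRF1: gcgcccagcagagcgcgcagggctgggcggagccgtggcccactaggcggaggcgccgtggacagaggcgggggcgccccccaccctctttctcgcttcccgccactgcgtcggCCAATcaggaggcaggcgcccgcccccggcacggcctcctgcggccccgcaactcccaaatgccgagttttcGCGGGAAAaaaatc
POLA1: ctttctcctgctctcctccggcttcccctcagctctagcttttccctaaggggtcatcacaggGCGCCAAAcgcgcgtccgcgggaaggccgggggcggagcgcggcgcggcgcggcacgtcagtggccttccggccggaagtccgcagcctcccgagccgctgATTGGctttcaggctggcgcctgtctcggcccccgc
ORC1: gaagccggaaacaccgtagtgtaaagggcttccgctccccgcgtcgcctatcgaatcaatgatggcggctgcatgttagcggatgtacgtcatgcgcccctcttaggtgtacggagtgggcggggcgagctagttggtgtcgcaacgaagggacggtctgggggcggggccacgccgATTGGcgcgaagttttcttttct
PCNA: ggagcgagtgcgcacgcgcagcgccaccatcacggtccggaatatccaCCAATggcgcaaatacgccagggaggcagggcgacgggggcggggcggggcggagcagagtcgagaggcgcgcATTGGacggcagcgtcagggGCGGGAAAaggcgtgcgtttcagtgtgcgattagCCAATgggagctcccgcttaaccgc

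The MCM6 window held 4 E2F-like matches, in 2 overlapping pairs, 1 match on each strand, that begin 152 and 148, and 90 and 86, bases before the start. The UHRF1 window held 1 match, 14 bases before the start, POLA1 held 1 at 137 bases and PCNA held 1 at 59 bases. ORC1, which fell about as far as POLA1, held none of these letters and had CCAAT 23 bases before the start. Over the full windows, E2F-like letters stood in 18 of 40 members (45.0%), against 908 of all 27305 RefSeq promoters of the same length (3.3%). CCAAT stood in 24 of the 40 member windows, against 35.7% of all windows. The letters TTTGAA or TTCGAA, known as the CHR of mitotic genes, stood in 1 member (MCM6, 2.5%), against 16.6% of all windows and 75.0% of the 20 matched mitosis genes. A match is a description of letters and not a binding site.

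Depth, replicate agreement and cell markers were as follows. An estimated 31300000 to 43060000 fragments lay behind each library, with SCAT7 gapmer libraries at 31300000 to 33420000 and control gapmer libraries at 42360000 to 43060000. Replicates correlated at 0.991 to 0.996 across genes on the log2 scale. The weakest member value, ORC1 in the second A549 cisplatin library, rested on about 240 fragments, and the median over members and libraries was 3420. Keratins were abundant in every library, as in epithelial cells (KRT7 at 2735 to 4179 FPKM). EPCAM was low at 0.58 to 3.81 FPKM. Of 9 markers of other lineages, COL1A1 stood at 7.20 to 52.7 FPKM and the other 8 were at 0.96 FPKM or below. SCAT7 is listed by RefSeq as another name of ELF3-AS1, which had 0.594 and 0.837 FPKM with the SCAT7 gapmer in solvent, against 2.56 and 3.57 with the control gapmer (log2 change -1.54, limma adjusted p = 7.5e-06). In cisplatin it had 1.69 and 2.18 FPKM with the SCAT7 gapmer, against 3.73 and 3.23 with the control gapmer (log2 change -0.71, limma adjusted p = 0.00355).

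In A549 cells, 24 h of cisplatin lowered nearly the whole replication machinery. Of the 46 members, 42 fell, 3 rose (PCNA, GINS4 and LIG1) and 1, ORC4, did not pass. Only PCNA stayed called higher after median ratio scaling or quantile normalization. Over all genes tested, 27.1% were called lower and 33.3% higher (4664 and 5729 genes). Lower calls led after median ratio scaling (5227 and 5172) and once quantiles were matched (5224 and 4762). The median member changed by -1.47 on the log2 scale, and the median of all genes by 0.06. A fall of at least 2-fold was seen in 33 members, against 4.98% of all genes. Cisplatin and solvent libraries did not overlap for 45 members, a pattern that 80.6% of all genes showed. Changes are on the scale log2(FPKM + 0.5) from limma, two-sided, and p-values were adjusted by Benjamini-Hochberg across the 17198 genes, with a threshold of 0.05. RNA from bulk cells cannot tell fewer cells in S phase from less of these RNAs in each cell. Together the 46 genes summed to 1598.5 and 1626.4 FPKM in cisplatin, against 3140.7 and 3144.9 FPKM in solvent.

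**Figure D1:**
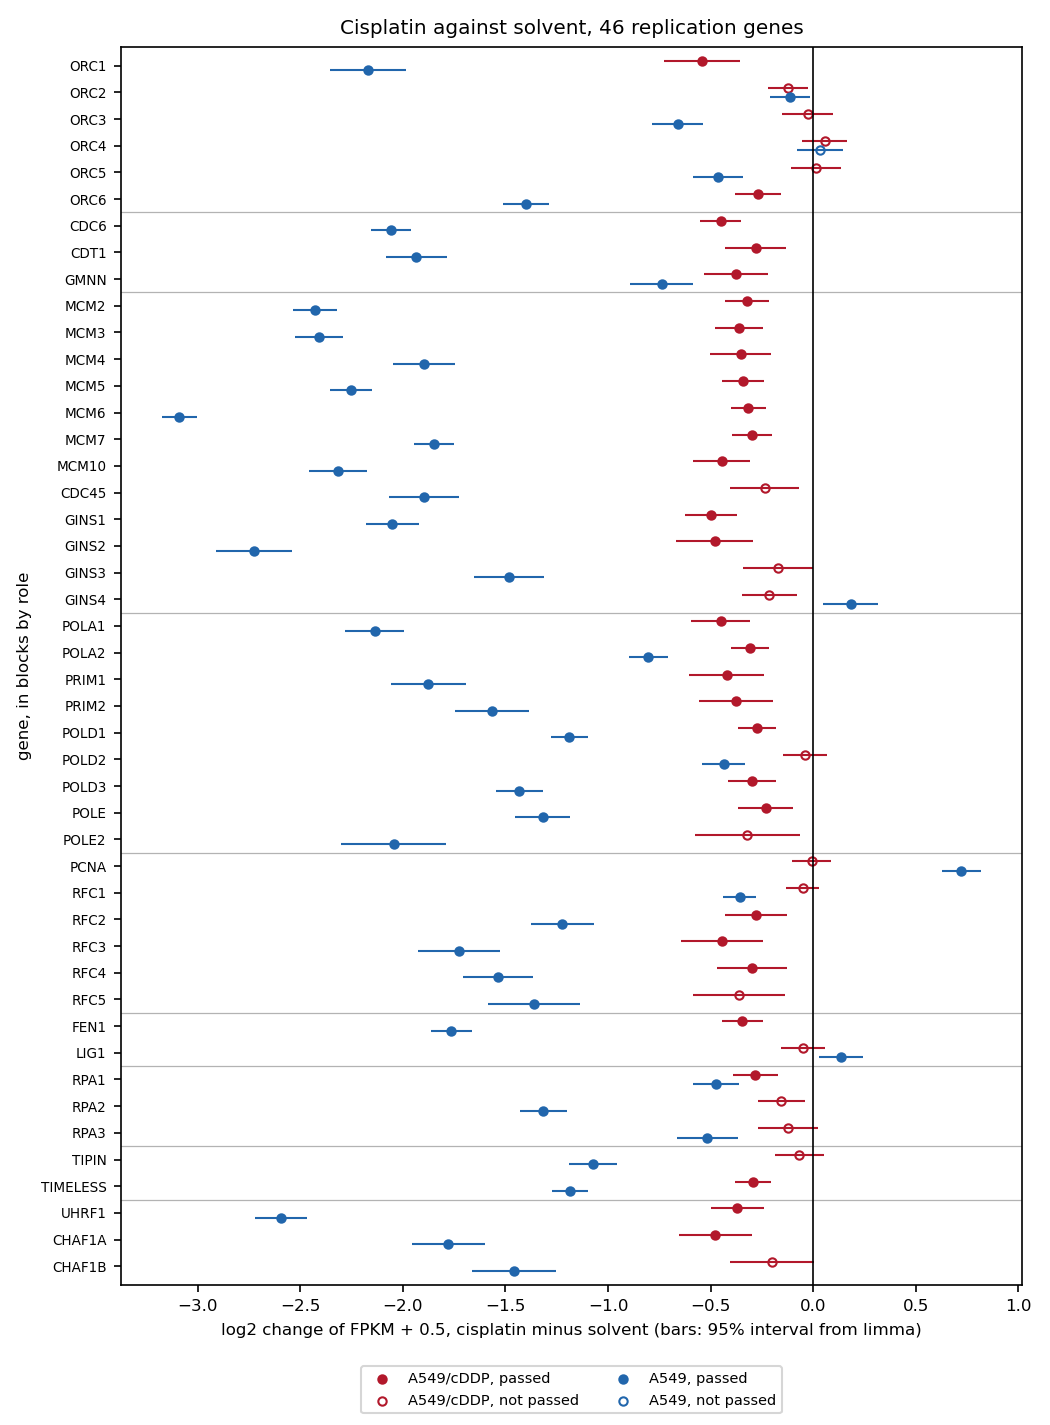
Log2 change of each of the 46 genes for cisplatin minus solvent, in A549/cDDP (red) and A549 (blue), with 95% intervals from limma; filled points passed the adjusted threshold and open points did not. In A549 the points lie between -3.09 for MCM6 and 0.72 for PCNA, while in A549/cDDP they lie between -0.54 and 0.06.

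Origin recognition split by subunit. ORC1, the subunit whose level cycles in many human cells, had 2.07 and 2.04 FPKM in cisplatin, against 10.7 and 11.3 FPKM in solvent (log2 change -2.17, SE 0.084, adjusted p = 3.66e-10). Every cisplatin library lay below every solvent library, and 80.6% of all genes were likewise without overlap. ORC6 fell by 1.40 on the log2 scale. ORC3 fell by 0.66 and ORC5 by 0.47. ORC4 had 19.7 and 19.9 FPKM in cisplatin, against 18.8 and 19.9 FPKM in solvent, and the libraries overlapped (log2 change 0.03, 95% interval -0.08 to 0.14, adjusted p = 0.591). ORC2 was called at -0.11 (adjusted p = 0.0478), a call lost without any of the 4 libraries: adjusted p was 0.157 and 0.107 without the first and the second solvent library, and 0.134 and 0.123 without the first and the second cisplatin library. Summed, ORC1 with ORC6 gave 19.6 and 19.9 FPKM in cisplatin, against 58.0 and 58.9 in solvent, whereas ORC2 to ORC5 gave 100.6 and 100.9 FPKM in cisplatin, against 122.8 in both solvent libraries.

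The licensing factors fell unequally. CDC6, which helps load the MCM ring, had 21.7 and 24.0 FPKM in cisplatin, against 97.9 and 95.3 FPKM in solvent (log2 change -2.06, SE 0.045, adjusted p = 3.15e-12). Its partner CDT1 fell by 1.94 on the log2 scale. GMNN, the CDT1 inhibitor, had 32.7 and 34.0 FPKM in cisplatin, against 53.5 and 58.5 FPKM in solvent (log2 change -0.74, SE 0.071, adjusted p = 1.64e-06). Groups did not overlap for any of the 3, a pattern that 80.6% of all genes showed. The ratio of GMNN to CDT1 was therefore 4.03 and 4.02 in cisplatin, against 1.603 and 1.78 in solvent.

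The helicase held the largest falls, and 11 of its 12 genes dropped at least 2-fold. MCM6 (ENSG00000076003, chromosome 2, 135839626 to 135876426 on hg38) had 12.7 and 12.6 FPKM in cisplatin, against 110.7 and 112 FPKM in solvent (log2 change -3.09, SE 0.039, adjusted p = 5.53e-14), or 0.117 times the solvent level. It was the lowest of all members. GINS2 (ENSG00000131153), a GINS subunit, had 7.22 and 7.21 FPKM in cisplatin, against 51.8 and 49.2 FPKM in solvent (log2 change -2.73, SE 0.086, adjusted p = 6.33e-11). MCM2 fell by 2.43, MCM3 by 2.41, MCM10 by 2.32 and MCM5 by 2.25 on the log2 scale. GINS1 fell by 2.05, MCM4 by 1.90, CDC45 by 1.90, MCM7 by 1.85 and GINS3 by 1.48. The 6 ring genes did not fall in step: MCM6 made up 6.64% and 6.59% of the summed FPKM of MCM2 to MCM7 in cisplatin, against 13.1% and 13.2% in solvent. MCM2 shares 22.7% of its exon length with an opposite-strand gene and GINS3 10.9%. Whether counting used strand is not given in the sources used here, so the effect of the overlap on MCM2 and GINS3 is not known.

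GINS4 went the other way from its complex. It had 42.8 and 46.5 FPKM in cisplatin, against 38.2 and 40.2 FPKM in solvent (log2 change 0.18, SE 0.061, adjusted p = 0.0212). The groups did not overlap, which was so for 80.6% of all genes. The call ended with median ratio scaling (0.13, adjusted p = 0.104), with quantile normalization (0.14, adjusted p = 0.0679), without the first solvent library (0.15, adjusted p = 0.131) and without the second cisplatin library (0.12, adjusted p = 0.18). GINS4 also shares 21.2% of its exon length with an opposite-strand gene.

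Among polymerase and primase genes all 9 fell. POLA1 (ENSG00000101868), the catalytic subunit of polymerase alpha, had 4.43 and 4.46 FPKM in cisplatin, against 21.2 and 21.4 FPKM in solvent (log2 change -2.14, SE 0.066, adjusted p = 5.44e-11). POLE2, an epsilon subunit, fell by 2.05 and the primase subunits PRIM1 and PRIM2 by 1.88 and 1.56. POLD3 fell by 1.43, POLE (catalytic subunit of epsilon) by 1.32, POLD1 (catalytic subunit of delta) by 1.19 and POLA2 by 0.80. POLD2, the second delta subunit, had 115 and 119 FPKM in cisplatin, against 158 FPKM in both solvent libraries (log2 change -0.44, SE 0.049, adjusted p = 6.34e-06), the smallest fall of the 9. The groups stayed apart for all of these, as for 80.6% of all genes. POLA2 overlaps another gene on its own strand over 35.1% of its exon length and PRIM1 over 14.9%, and POLD2 has a pseudogene, so their values are less certain.

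The clamp and its loader parted. PCNA (ENSG00000132646, chromosome 20, 5114953 to 5126626), the clamp that tethers polymerases and also serves DNA repair, had 460.1 and 464 FPKM in cisplatin, against 282 and 278 FPKM in solvent (log2 change 0.72, SE 0.044, adjusted p = 2.23e-08), or 1.65 times the solvent level. It rose while all 5 loader genes fell: RFC3 by 1.73, RFC4 by 1.54, RFC5 by 1.36, RFC2 by 1.22 and RFC1 by 0.36 on the log2 scale. RFC3 had 17.5 and 16.4 FPKM in cisplatin, against 57.6 and 56.8 FPKM in solvent. RFC1, the large subunit, had 44.6 and 44.5 FPKM in cisplatin, against 58.1 and 56.4 FPKM in solvent. None of these groups overlapped, as for 80.6% of all genes. PCNA made up 28.8% and 28.6% of the summed FPKM of the 46 genes in cisplatin, against 8.98% and 8.84% in solvent. PCNA has 3 named pseudogenes, and RFC3 and RFC5 1 each, and their effect on the authors' counting is not known. RPA2 has 3 and FEN1 has 1, and the same limit holds for their values.

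The enzymes that finish lagging-strand fragments also parted. FEN1, the flap nuclease, had 31.5 and 32.6 FPKM in cisplatin, against 110.3 and 109.9 FPKM in solvent (log2 change -1.76, SE 0.046, adjusted p = 1.31e-11). LIG1, the ligase that seals nicks, had 63.3 and 65.9 FPKM in cisplatin, against 59.0 and 58.4 FPKM in solvent (log2 change 0.14, SE 0.049, adjusted p = 0.0289). The groups did not overlap for either gene, which was so for 80.6% of all genes. The rise of LIG1 was small, and its call ended with median ratio scaling (0.08, adjusted p = 0.159), with quantile normalization (0.09, adjusted p = 0.125) and with no filter on low values (adjusted p = 0.058). It ended too without the first solvent library (adjusted p = 0.0769), the second solvent library (adjusted p = 0.11) or the second cisplatin library (adjusted p = 0.166).

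Single-strand binding, fork protection and chromatin genes all fell. RPA2, a subunit of the single-strand binding protein RPA, had 19.2 and 18.6 FPKM in cisplatin, against 49.6 and 46.2 FPKM in solvent (log2 change -1.32, SE 0.053, adjusted p = 4.79e-10). The large subunit RPA1 had 85.2 and 89.5 FPKM in cisplatin, against 121 and 122 FPKM in solvent (log2 change -0.47), and RPA3 fell by 0.52. TIMELESS, which with TIPIN stabilises stalled forks, had 25.6 and 27.1 FPKM in cisplatin, against 60.6 and 60.5 FPKM in solvent (log2 change -1.19). TIPIN had 14.6 and 15.6 FPKM in cisplatin, against 32.1 and 32.4 FPKM in solvent (log2 change -1.07), though a ribosomal protein pseudogene on its strand covers 21.0% of its exon length. UHRF1 (ENSG00000276043), which brings the maintenance DNA methyltransferase to replicated DNA, had 7.06 and 7.71 FPKM in cisplatin, against 46.5 and 47.7 FPKM in solvent (log2 change -2.60, SE 0.059, adjusted p = 4.07e-12). The chromatin assembly factor subunit CHAF1B had 6.71 and 6.35 FPKM in cisplatin, against 19.1 and 18.5 FPKM in solvent (log2 change -1.46), and CHAF1A fell by 1.78. No group overlapped another in these 8 genes, a pattern that 80.6% of all genes showed.

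Genes that regulate the cell cycle moved in the same libraries. CDKN1A had 1636 and 1611 FPKM in cisplatin-treated A549 cells, against 84.1 and 84.3 FPKM in solvent (log2 change 4.26, adjusted p = 7.77e-17). E2F1, an activating E2F factor, had 4.73 and 4.85 FPKM in cisplatin, against 31.0 and 31.3 FPKM in solvent (log2 change -2.58). The repressive factors parted: E2F7 rose by 1.67 on the log2 scale and E2F8 fell by 2.68. All 25 genes of a mitosis list fell, with a median change of -2.21 and the lowest in PLK1, a mitotic kinase, at -3.30. Their part in the falls of the replication genes was not tested.

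Another 37 replication genes, outside the 46, fell less. Of these, 33 fell, 3 rose and 1 did not pass, with a median change of -0.93. ASF1B, a histone chaperone, fell by 2.08, the checkpoint mediator CLSPN by 1.94 and TICRR, which helps fire origins, by 1.90. POLD4, a delta subunit, rose by 0.91, LRWD1, an ORC-binding protein, by 0.58 and CHTF8, a clamp loader subunit, by 0.11.

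Promoter letters and size of change were compared within the 40 matched members. The 18 with E2F-like letters had a median change of -1.99 (range -3.09 to 0.72), and the 22 without had -1.29 (range -2.32 to 0.03). Of the 29 matched members with a fall of at least 2-fold, 14 held the letters (48.3%), against 4 of the other 11 (36.4%). PCNA, which rose, held them as well. So did LIG1, whose called rise ended with median ratio scaling or quantile normalization. No test was run on this split.

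**Figure D2:**
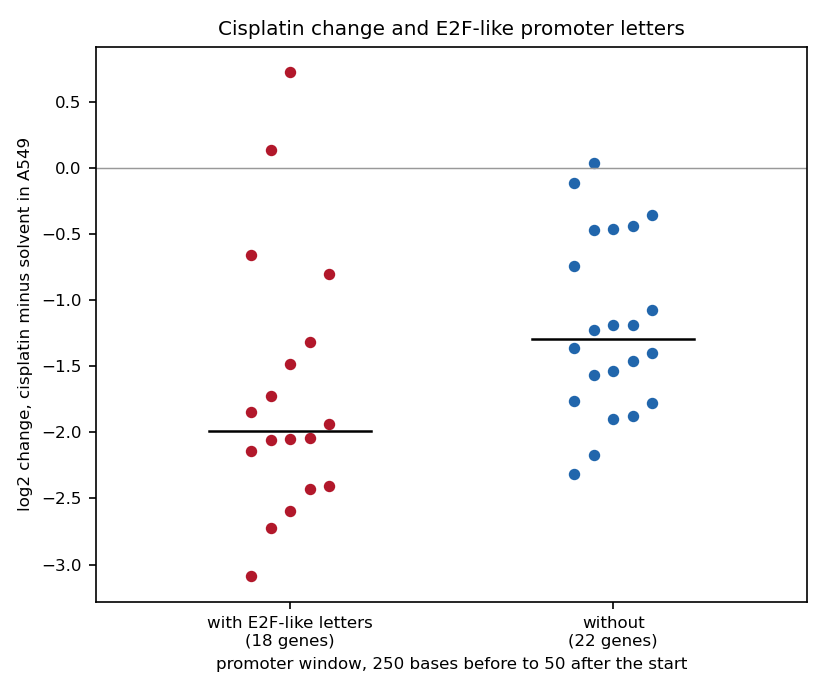
Log2 change for cisplatin minus solvent in A549 (y axis) of the 40 members with a RefSeq promoter window, split by whether the window holds E2F-like letters (18 genes, left) or not (22 genes, right); lines are medians. The medians are -1.99 and -1.29, and both sets spread over most of the range.

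In A549/cDDP cells, which had been maintained in cisplatin before, 24 h of cisplatin against solvent lowered the genes far less. Of the 46 members, 29 fell, none rose and 17 did not pass, and the median change was -0.30. By limma, an unadjusted p under 0.05 was reached by 35 members that were lower and by 0 that were higher, and by 3802 of the 17198 genes in either direction. Over all genes, 4.55% were called lower and 3.55% higher. No member fell 2-fold. The lowest called changes were in ORC1 (-0.54), GINS1 (-0.50) and GINS2 (-0.48), and the least negative called were POLE (-0.23), ORC6 (-0.27) and POLD1 (-0.27). When only the 4 libraries compared were fitted, the calls of ORC1, POLE, ORC6 and POLD1 ended, while GINS1 and GINS2 kept theirs. Counts were 17 without the second A549/cDDP solvent library, 18 without the second A549/cDDP cisplatin library, and 14 when only the 4 libraries compared were fitted.

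Levels show how small these changes were. MCM6 had 20.4 and 19.7 FPKM in cisplatin-treated A549/cDDP cells, against 25.03 and 25.2 FPKM in solvent (log2 change -0.32, adjusted p = 0.000741). ORC1 had 2.84 and 2.52 FPKM in cisplatin, against 4.28 and 3.99 FPKM in solvent. GINS2 had 9.93 and 9.39 FPKM in cisplatin, against 13.3 and 14.0 FPKM in solvent, a call that ended without the second solvent library (adjusted p = 0.0559) or the second cisplatin library (adjusted p = 0.0546). The groups did not overlap for these 3, a pattern that 51.9% of all genes showed. PCNA had 186 and 167 FPKM in cisplatin, against 175 and 179.8 FPKM in solvent, and its libraries overlapped (log2 change -0.01, adjusted p = 0.951). The ORC6 call (adjusted p = 0.00787) ended without the second solvent library (adjusted p = 0.0852) or the second cisplatin library (adjusted p = 0.0556). That of POLE (adjusted p = 0.0396) ended without the first or the second solvent library (adjusted p = 0.185 and 0.133) or the first cisplatin library (adjusted p = 0.219). CDKN1A had 708 and 711 FPKM in cisplatin, against 580 and 573 FPKM in solvent. Among the 37 other replication genes 16 fell and 0 rose, and all 25 mitosis genes fell.

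The difference between the lines was tested directly, as the cisplatin change in A549/cDDP minus that in A549. A549/cDDP had been grown in cisplatin before and A549 had not, and this cannot be told apart from the line. The difference was positive for 41 members, negative for 3 and not called for ORC2 and ORC4, with a median of 1.21 on the log2 scale. Over all genes 21.5% were positive and 25.6% negative (3692 and 4396 genes). Positive calls led after median ratio scaling (4202 and 3942) and once quantiles were matched (4126 and 3585). The difference was 2.77 for MCM6 (SE 0.055, adjusted p = 1.17e-11), 2.25 for GINS2 (adjusted p = 2.44e-08) and 2.23 for UHRF1 (adjusted p = 1.18e-09). It was -0.73 for PCNA (SE 0.062, adjusted p = 1.16e-06), -0.40 for GINS4 (adjusted p = 0.0024) and -0.19 for LIG1 (adjusted p = 0.0428). By role the median difference was 1.76 for the 12 helicase genes, 1.61 for licensing, 1.13 for polymerases and primase, 0.56 for ORC and 0.39 for the 3 RPA genes. The LIG1 call ended without any library of these 4 groups except the first A549 cisplatin and the second A549/cDDP cisplatin library, with adjusted p between 0.0562 and 0.156, and after median ratio scaling (adjusted p = 0.125) or quantile normalization (adjusted p = 0.103).

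The lines also differed in solvent, where A549/cDDP cells had been grown in cisplatin before and A549 cells had not. There, 44 of 46 members were lower in A549/cDDP than in A549, none was higher, and ORC3 (adjusted p = 0.987) and RFC1 (-0.07, adjusted p = 0.0938) did not pass. By limma 44 were lower and 0 higher at an unadjusted p under 0.05, which 12454 of all genes reached. Over all genes 27.5% were called lower and 42.7% higher (4737 and 7338 genes). After median ratio scaling 5815 were lower and 6225 higher, so higher calls still led. After quantile normalization 5821 were lower and 5670 higher, and lower calls led. The median of all genes was 0.15 on the deposited scale. After median ratio scaling it was 0.04, and after quantile normalization -0.01. The median member was at -1.17, or -1.33 relative to the median of all genes.

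Helicase genes again stood lowest. MCM6 had 25.03 and 25.2 FPKM in A549/cDDP, against 110.7 and 112 FPKM in A549 (log2 change -2.13, adjusted p = 7.45e-13). CDC45, a part of the running helicase, had 10.2 and 10.5 FPKM in A549/cDDP, against 43.4 and 45.0 FPKM in A549 (log2 change -2.05). GINS2 had 13.3 and 14.0 FPKM in A549/cDDP, against 51.8 and 49.2 FPKM in A549 (log2 change -1.85). None of these groups overlapped, a pattern that 85.8% of all genes showed. In A549/cDDP in solvent PCNA was lower by 0.66 and LIG1 by 0.996 on the log2 scale. Both had been called higher with cisplatin in A549, though the LIG1 call depended on scaling. The smallest called differences were ORC2 (-0.14, adjusted p = 0.0128) and ORC4 (-0.18, adjusted p = 0.00653). The ORC2 call ended without the first A549/cDDP library (adjusted p = 0.07) or the first A549 library (adjusted p = 0.0615), and the ORC4 call without the first A549/cDDP library (adjusted p = 0.0651) or the second A549 library (adjusted p = 0.0646). PRIM2, a primase subunit, was next at -0.47 (adjusted p = 0.00027). CDKN1A had 580 and 573 FPKM in A549/cDDP, against 84.1 and 84.3 FPKM in A549, and all 25 mitosis genes were lower. The 6 epithelial markers summed to 5707 and 5555 FPKM in A549/cDDP, against 8429 and 8414 FPKM in A549. The 9 markers of other lineages summed to 40.3 and 36.9 FPKM in A549/cDDP, nearly all of it COL1A1, against 9.499 and 9.91 FPKM in A549. Their part was not tested.

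In cisplatin the lines were close on balance and far apart for a few genes. Of the 46 members 21 were higher in A549/cDDP, 16 lower and 9 not called, with a median of 0.03, and over all genes 37% were higher and 29.5% lower. With median ratio scaling the members split 19 and 19. UHRF1 had 15.2 and 15.1 FPKM in A549/cDDP, against 7.06 and 7.71 FPKM in A549 (log2 change 0.99, adjusted p = 1.63e-08). MCM3 was higher by 0.94 and MCM2 by 0.75. GINS4 had 16.6 and 15.7 FPKM in A549/cDDP, against 42.8 and 46.5 FPKM in A549 (log2 change -1.44, adjusted p = 9.24e-10). PCNA, at 186 and 167 FPKM in A549/cDDP against 460.1 and 464 FPKM in A549, was lower by 1.39, and LIG1 by 1.18. The groups did not overlap for these 6 genes, a pattern that 82.8% of all genes showed. The comparisons between lines and the cisplatin comparisons share libraries, so their values stand side by side and their agreement was not tested.

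**Figure D3:**
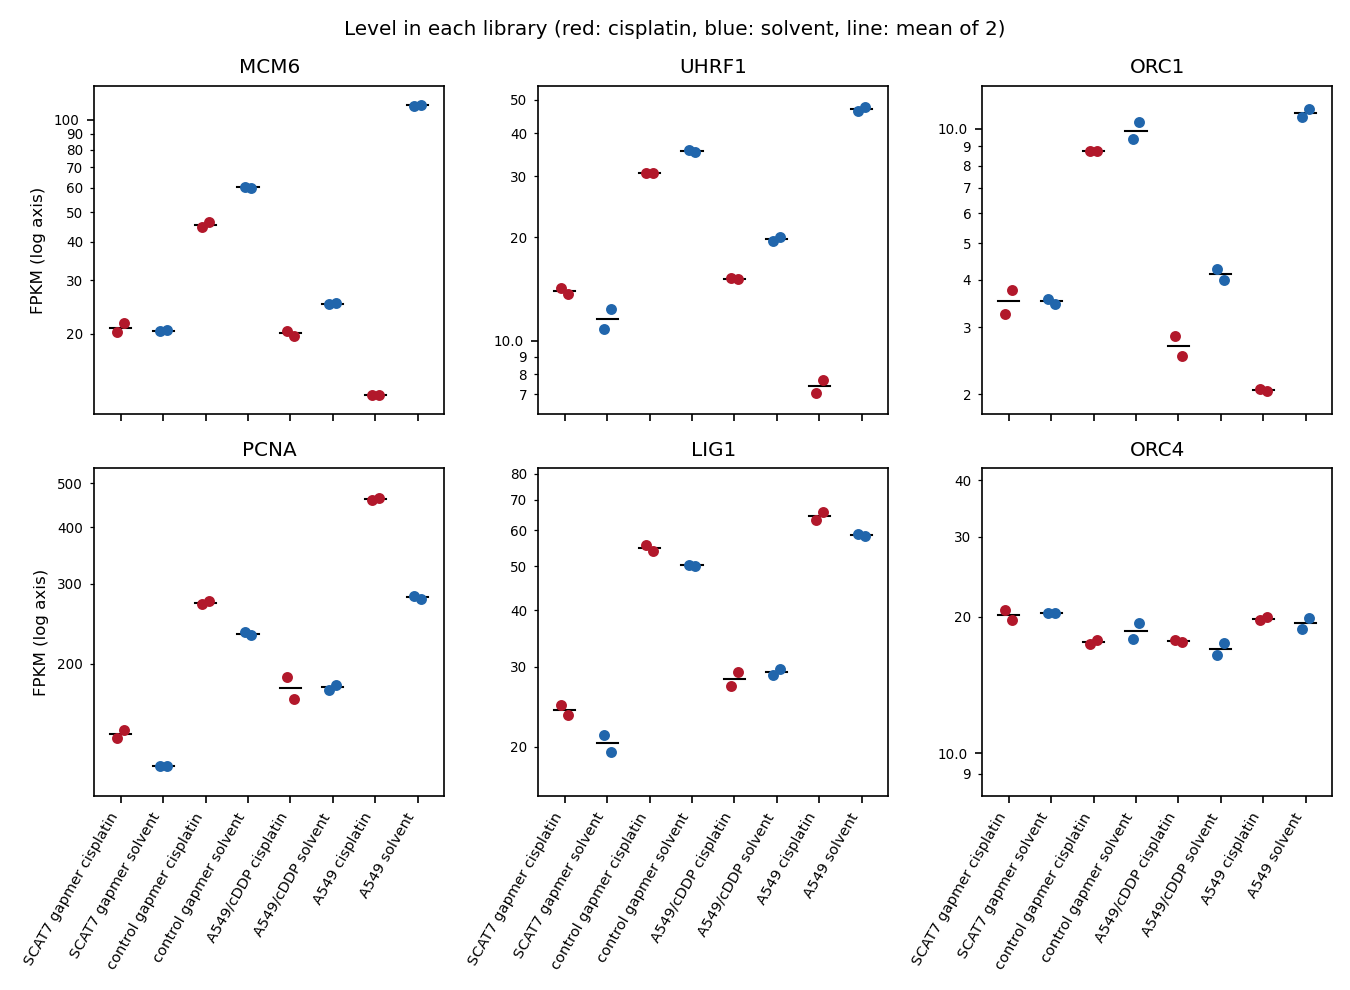
FPKM (log axis) of MCM6, UHRF1, ORC1, PCNA, LIG1 and ORC4 in every library, by group, with cisplatin in red, solvent in blue and a line at the mean of 2. MCM6 is lowest in A549 in cisplatin (12.7 and 12.6) and PCNA highest there (460.1 and 464), while ORC4 stays between 16.5 and 20.7 in all 16 libraries.

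In A549/cDDP the replication genes were lower with the SCAT7 gapmer than with the control gapmer. In solvent 42 of 46 members were lower, ORC4 was called higher, and ORC2, ORC5 and RFC1 did not pass. Over all genes 22.7% were called lower and 33.2% higher (3903 and 5702 genes), but 4839 and 4824 after quantile normalization. The median member was at -1.36 and the median of all genes at 0.06. A difference of at least 2-fold was seen in 31 members, against 2.44% of all genes. The 46 genes summed to 1114.9 and 1166.3 FPKM with the SCAT7 gapmer, against 2579.3 and 2559.8 FPKM with the control gapmer. Untransfected A549/cDDP cells in solvent, at 1488.7 and 1504.5 FPKM, lay between them, above the SCAT7 gapmer and below the control gapmer. The SCAT7 gapmer was not tested against no transfection. The labels name the knockdown gapmer as a single sequence, so an effect of the oligonucleotide apart from its target cannot be told apart from the knockdown. SCAT7 gapmer libraries had fewer fragments, and the part of depth was not tested.

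The lowest members were helicase and polymerase genes. GINS2 had 7.56 and 9.28 FPKM with the SCAT7 gapmer, against 35.2 and 32.3 FPKM with the control gapmer (log2 change -1.95, SE 0.086, adjusted p = 3.7e-09). CDC45 had 5.497 and 6.65 FPKM with the SCAT7 gapmer, against 25.02 and 23.9 FPKM with the control gapmer (log2 change -1.93, adjusted p = 1.99e-09). POLE2 had 4.07 and 5.06 FPKM with the SCAT7 gapmer, against 20.02 and 16.8 FPKM with the control gapmer (log2 change -1.90, adjusted p = 6.29e-08). No groups overlapped in these genes, a pattern that 77.4% of all genes showed. PCNA, at 119 FPKM in both SCAT7 gapmer libraries against 234 and 231 FPKM with the control gapmer, was lower by 0.97, and LIG1 was lower by 1.29. GINS4 was lower by 1.35, close to the median. The smallest called falls were in TIPIN (-0.38) and POLD2 (-0.55).

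ORC4 was higher by 0.13 (adjusted p = 0.0423), with 20.4 FPKM in both SCAT7 gapmer libraries, against 17.8 and 19.4 FPKM with the control gapmer. Its call ended with median ratio scaling (adjusted p = 0.137) and quantile normalization (adjusted p = 0.0903). It also ended without the first or the second SCAT7 gapmer library (adjusted p = 0.121 and 0.107) and without the first control gapmer library (0.07, adjusted p = 0.33).

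**Figure D4:**
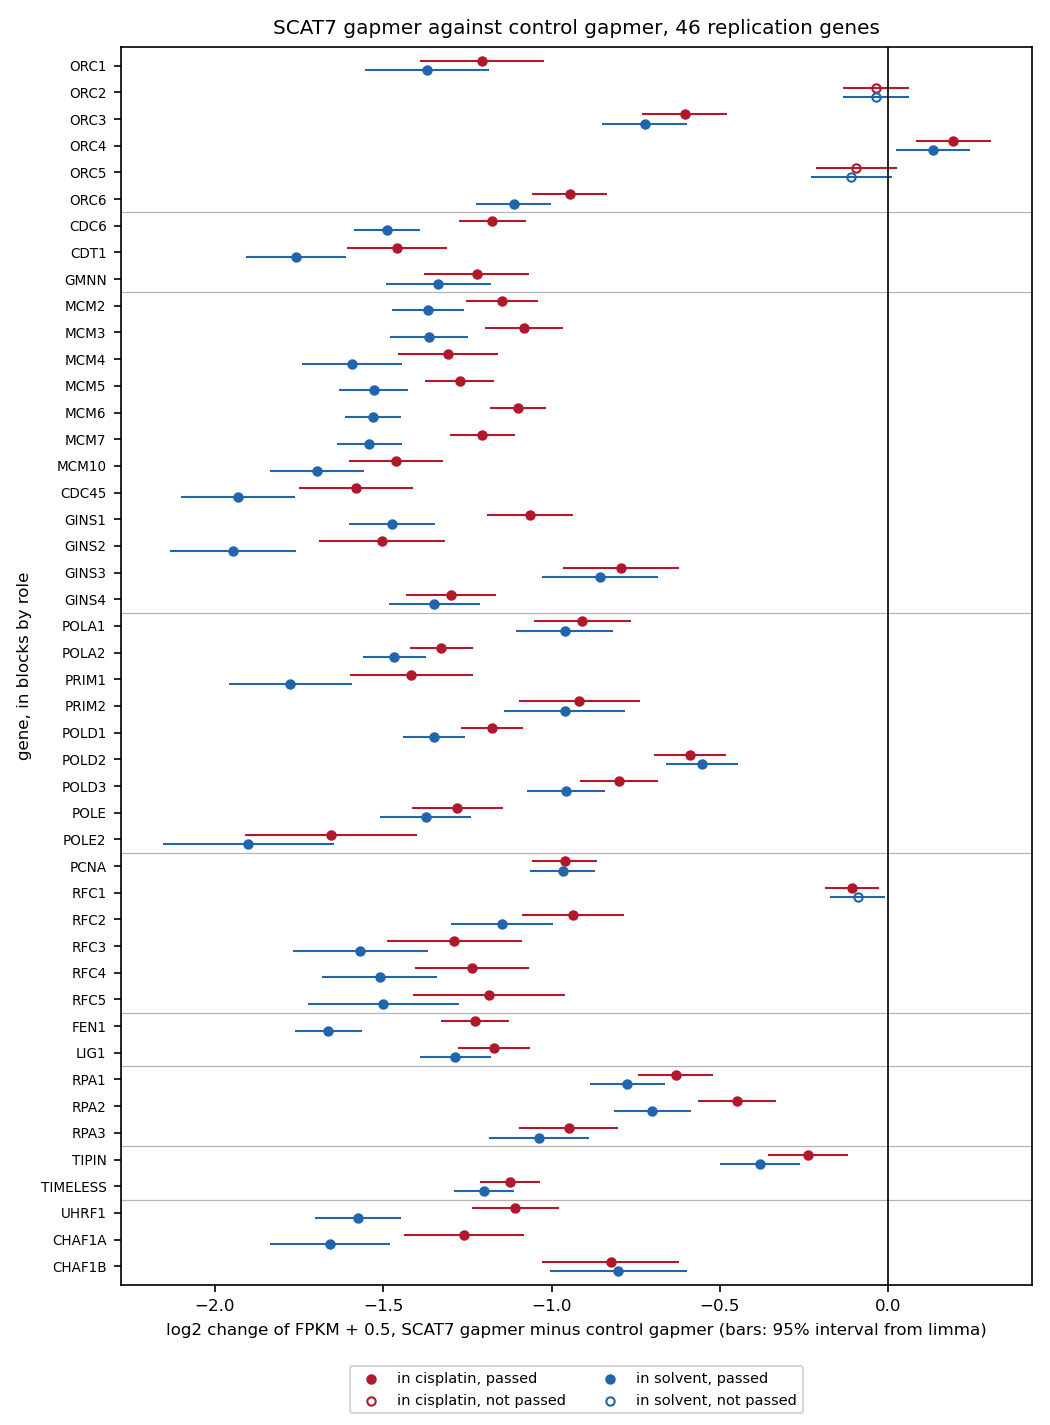
Log2 change of each of the 46 genes for SCAT7 gapmer minus control gapmer in A549/cDDP, in cisplatin (red) and in solvent (blue), with 95% intervals from limma; filled points passed the adjusted threshold. In solvent the points lie between -1.95 for GINS2 and 0.13 for ORC4, and in cisplatin between -1.66 for POLE2 and 0.19 for ORC4.

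In cisplatin 43 members were lower with the SCAT7 gapmer, ORC4 was higher and ORC2 and ORC5 did not pass, with a median of -1.14. The 46 genes summed to 1242.8 and 1285.1 FPKM with the SCAT7 gapmer, against 2494.4 and 2514 FPKM with the control gapmer. Untransfected cells in cisplatin, at 1300.6 and 1255.9 FPKM, overlapped the SCAT7 gapmer libraries. Over all genes 21.1% were called lower and 28.6% higher. POLE2 had 4.25 and 5.15 FPKM with the SCAT7 gapmer, against 14.8 and 16.9 FPKM with the control gapmer (log2 change -1.66). CDC45 was lower by 1.58 and GINS2 by 1.505. POLE2 groups did not overlap, a pattern that 72.5% of all genes showed. The smallest called falls were RFC1 (-0.11, adjusted p = 0.0282) and TIPIN (-0.24, adjusted p = 0.00309). ORC4 was higher by 0.19 (adjusted p = 0.0073). The RFC1 and ORC4 calls ended without the first SCAT7 gapmer library (adjusted p = 0.136 and 0.057) or the first control gapmer library (adjusted p = 0.182 and 0.0502).

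Regulators moved beside them. CDKN1A had 626 and 623 FPKM with the SCAT7 gapmer in solvent, against 266 and 269 FPKM with the control gapmer, and in cisplatin 661 and 666 FPKM with the SCAT7 gapmer, against 447 and 449 FPKM. E2F1 had 6.49 and 6.55 FPKM with the SCAT7 gapmer in solvent, against 20.5 and 19.7 FPKM with the control gapmer (log2 change -1.55). E2F8 was lower by 1.86, while E2F7 was not called (-0.15, adjusted p = 0.0629). All 25 mitosis genes were lower in solvent and in cisplatin. Of the 37 other replication genes 30 were lower and 2 higher in solvent, ASF1B lowest at -2.09 and POLD4 highest at 0.47. In cisplatin 30 were lower and 1 higher. Their part in the falls of the members was not tested.

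With the control gapmer, cisplatin moved 3 members. MCM6 had 44.6 and 46.4 FPKM in cisplatin, against 60.4 and 60.01 FPKM in solvent (log2 change -0.40, SE 0.039, adjusted p = 0.000168). MCM5 was lower by 0.24 (adjusted p = 0.0169) and PCNA higher by 0.23 (adjusted p = 0.0179). The others did not pass, and the median change was -0.03. At an unadjusted p under 0.05 in limma 8 of all 46 members were lower and 3 higher, these 3 calls included, and 2400 of the 17198 genes reached it in either direction. Over all genes 0.855% were called lower and 1.67% higher (147 and 288 genes), or 183 and 204 by median ratio scaling, and 159 and 229 once quantiles were matched. The MCM5 and PCNA calls both ended when any 1 of the 4 libraries was left out, and only MCM6 was then called. For MCM5 and PCNA in that order, adjusted p was 0.1 and 0.0944 without the first solvent library, and 0.139 and 0.152 without the second. It was 0.0751 and 0.107 without the first cisplatin library, and 0.171 and 0.15 without the second. CDKN1A rose by 0.74 on the log2 scale, and 11 of the 25 mitosis genes fell.

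With the SCAT7 gapmer, cisplatin-treated cells had slightly more of these RNAs. Of the 46 members 12 were higher and none lower, with a median of 0.15, and 24 were higher and 0 lower at an unadjusted p under 0.05 in limma, which 3876 of the 17198 genes reached in either direction. Over all genes 2.92% were called higher and 1.26% lower (502 and 217 genes), or 298 and 240 by median ratio scaling, and 481 and 329 once quantiles were matched. CHAF1A had 20.8 and 23.2 FPKM in cisplatin, against 15.3 and 17.7 FPKM in solvent (log2 change 0.41, adjusted p = 0.0244). FEN1 had 39.4 FPKM in both cisplatin libraries, against 28.8 and 32.4 FPKM in solvent (log2 change 0.36, adjusted p = 0.00795). CDC45 had 7.60 and 7.81 FPKM in cisplatin, against 5.497 and 6.65 FPKM in solvent (log2 change 0.33, adjusted p = 0.0402). The groups did not overlap for these 3, a pattern that 45% of all genes showed. POLA2 (0.18), MCM7 (0.21) and PCNA (0.23) were the smallest called.

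These calls were fragile. The count was 7 with median ratio scaling, 2 with a prior without trend, and 0 when only the 4 libraries compared were fitted. It was 1 without the first SCAT7 gapmer solvent library and 5 without the first SCAT7 gapmer cisplatin library. None of the 12 calls held under every alternative, and the adjusted p of FEN1 ran from 0.00158 to 0.395 over them. Among the mitosis genes 10 of 25 were higher and 0 lower, and 6 of the 37 other replication genes were higher and 0 lower.

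The difference of the cisplatin changes, SCAT7 gapmer minus control gapmer, was called for 6 members, all positive, with a median over members of 0.17. Over all genes 0.488% were positive and 0.442% negative. At an unadjusted p under 0.05 in limma 21 members were positive and 0 negative, and 2350 of the 17198 genes reached it in either direction. The differences were 0.47 for UHRF1, 0.44 for FEN1, 0.43 for MCM6, 0.41 for GINS1, 0.34 for MCM7 and 0.31 for CDC6. Their adjusted p were 0.0233, 0.00992, 0.00475, 0.0449, 0.0283 and 0.0451 in that order. UHRF1 had 14.2 and 13.7 FPKM in cisplatin, against 10.8 and 12.4 FPKM in solvent, with the SCAT7 gapmer, and 30.6 and 30.7 FPKM in cisplatin, against 35.7 and 35.3 FPKM in solvent, with the control gapmer. Among the 25 mitosis genes 17 were positive and 0 negative. None of the 6 held under every alternative. The count was 2 with a prior without trend and 0 when only the 8 libraries compared were fitted. It was 1 without the first control gapmer solvent or the second control gapmer cisplatin library. It was 2 without the second control gapmer solvent, the first control gapmer cisplatin or the first SCAT7 gapmer solvent library, and 3 without the first SCAT7 gapmer cisplatin library.

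Transfection with the control gapmer went with higher levels than no transfection. In solvent 44 of 46 members were higher in control gapmer A549/cDDP cells, none was lower, and ORC4 and POLD2 did not pass. The median was 0.88, and over all genes 20.7% were called higher and 19% lower (3562 and 3266 genes), but 3179 and 3759 after quantile normalization. By limma 45 were higher and 0 lower at an unadjusted p under 0.05, which 8214 of all genes reached. MCM5 had 87.3 and 87.6 FPKM with the control gapmer, against 36.1 and 34.2 FPKM without transfection (log2 change 1.30, adjusted p = 3.68e-09). POLE2 was higher by 1.28 and GINS2 by 1.27. MCM5 groups did not overlap, a pattern that 72.5% of all genes showed. The smallest called were RFC1 (0.12, adjusted p = 0.0198), ORC2 (0.13, adjusted p = 0.0387) and ORC5 (0.19, adjusted p = 0.0168). All 3 calls ended after quantile normalization (adjusted p = 0.127, 0.158 and 0.0747 in that order) and without the second untransfected library (adjusted p = 0.0889, 0.0856 and 0.113 in that order). RFC1 and ORC2 ended also without the first untransfected library (adjusted p = 0.0671 and 0.162) or the second control gapmer library (adjusted p = 0.135 and 0.156). ORC2 and ORC5 ended without the first control gapmer library (adjusted p = 0.0931 and 0.114).

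In cisplatin 44 members were higher with the control gapmer than without transfection, none was lower, and ORC4 and ORC5 did not pass. The median was 1.12. Over all genes 23% were called higher and 19.4% lower (3956 and 3333 genes), but 3524 and 3740 by median ratio scaling, and 3248 and 4158 once quantiles were matched. By limma 45 members were higher and 0 lower at an unadjusted p under 0.05, which 8508 of all genes reached. GINS2 had 30.6 and 31.0 FPKM with the control gapmer, against 9.93 and 9.39 FPKM without transfection (log2 change 1.62, adjusted p = 4.15e-08). MCM10 was higher by 1.58 and CDC6 by 1.54. GINS2 groups did not overlap, a pattern that 72% of all genes showed. POLD2 was the smallest called (0.19, adjusted p = 0.00664), a call that ended without the first control gapmer library (adjusted p = 0.0627). CDKN1A had 447 and 449 FPKM with the control gapmer, against 708 and 711 FPKM without transfection, and all 25 mitosis genes were higher in both media. The transfected cells also received the lipid reagent, whose part cannot be told apart from that of the gapmer. They were collected 48 h after transfection, whereas the labels give untransfected cells only 24 h of drug or solvent. Time in culture may therefore differ too, and its part cannot be told apart from that of transfection.

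Across the 8 groups, A549 in solvent had the highest mean for 34 members. The lowest mean was in A549 in cisplatin for 21 members and in SCAT7 gapmer cells in solvent for 21 others, with 2 each in A549/cDDP in cisplatin and in solvent. The 3 members highest in A549 in cisplatin were those called higher there, of which only PCNA stayed called after median ratio scaling or quantile normalization. In A549 in solvent, where FPKM allows genes to be ordered per length, PCNA (280 ± 2.84 FPKM, SD, n = 2) and MCM4 (269 ± 3.64) were the most abundant, and ORC1 (11.0 ± 0.376) the least. The sum of the 46 genes was 2494.4 and 2514 FPKM with the control gapmer in cisplatin, against 2579.3 and 2559.8 FPKM in solvent. Without transfection A549/cDDP summed to 1300.6 and 1255.9 FPKM in cisplatin, against 1488.7 and 1504.5 FPKM in solvent.

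**Figure D5:**
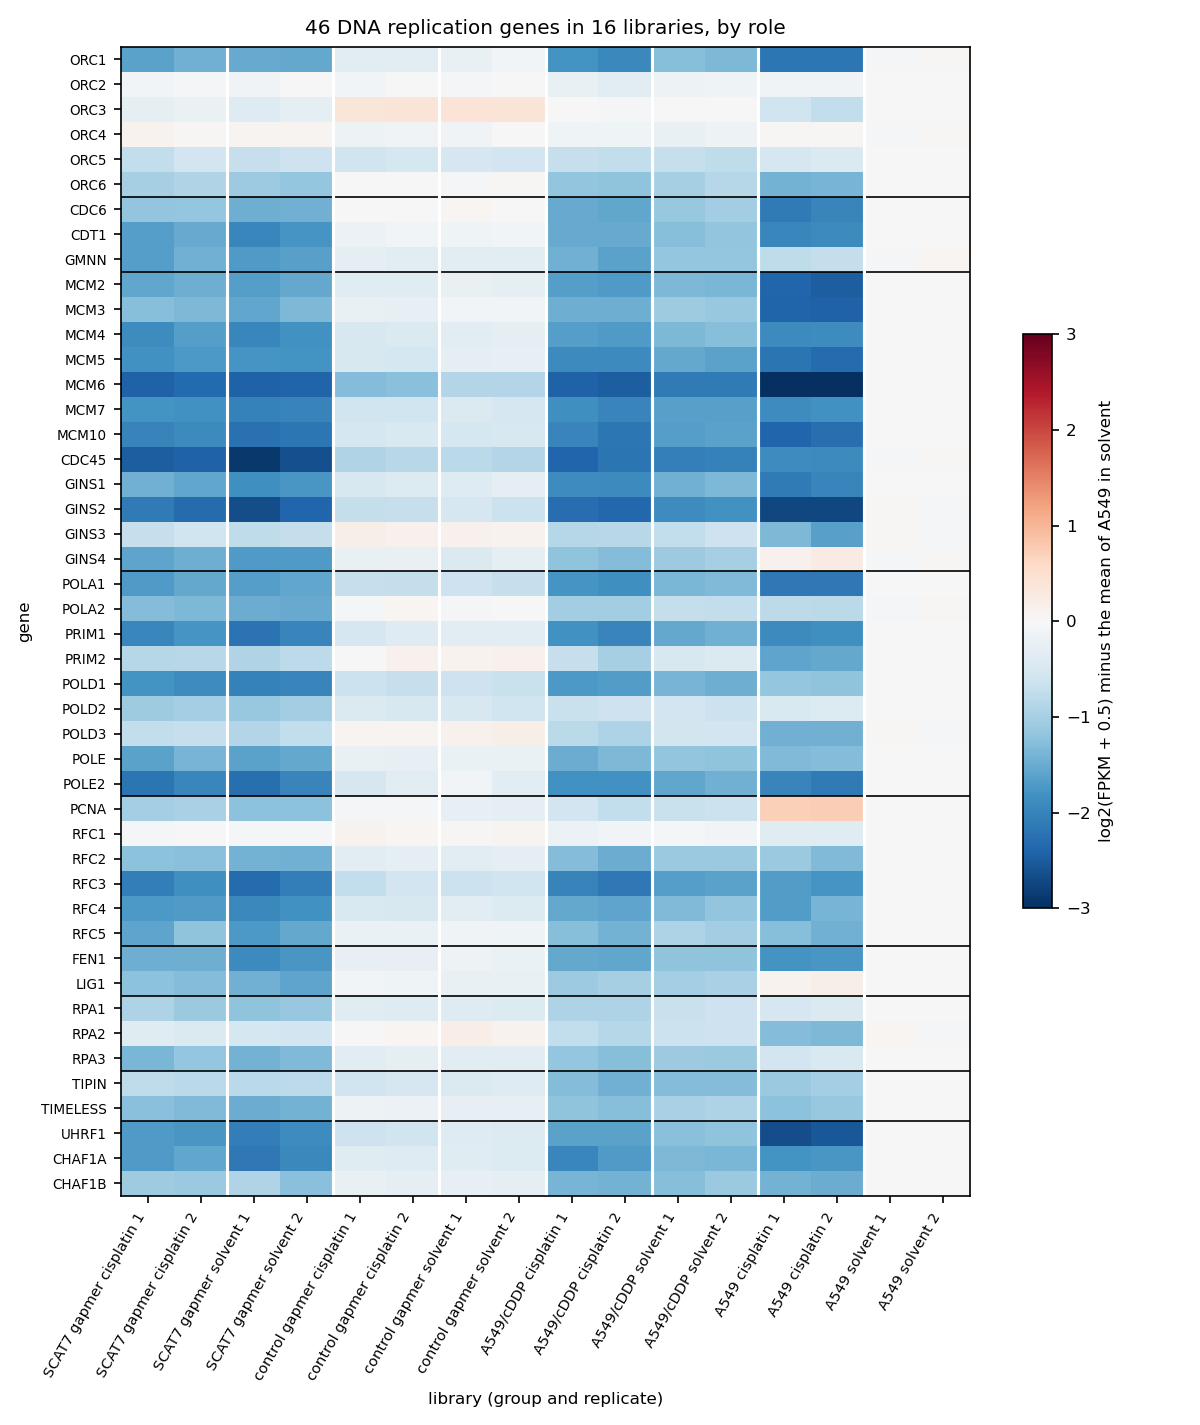
Level of each of the 46 genes (rows, in blocks by role) in each of the 16 libraries (columns), as log2(FPKM + 0.5) minus the mean of A549 in solvent. Blue is lower and red higher: MCM6 is lowest in A549 in cisplatin, most rows are blue in untransfected A549/cDDP and in SCAT7 gapmer libraries, and PCNA is the row that is clearly red in A549 in cisplatin.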

How the data were processed

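The authors deposited 1 table of FPKM for 16 libraries and 60448 gene identifiers. Reads were aligned with TopHat2 and counted with HTSeq 0.6.1 on hg38, per the submitters' processing notes. Which annotation release was used, and whether counting was stranded, is not given in the sources used here. The mRNA was enriched on oligo(dT), per the labels' protocols. Fragment numbers were estimated from low FPKM values and GENCODE 29 exon lengths: 70.2% to 75.8% of low values were whole within 0.02 reads, so they are approximate, FPKM were not turned into counts and no count test was run. Estimated fragments cover counting error only.

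The 17198 genes averaging 0.5 FPKM or more were fitted on log2(FPKM + 0.5), which understates changes of low genes, with limma 3.58.1 in R 4.3.3: 8 group means, a trended prior, 8 residual degrees of freedom, two-sided, Benjamini-Hochberg over all genes tested, threshold 0.05. Rose, fell, higher and lower mark genes past it. The script was tested on simulated data. Figures were drawn with matplotlib 3.10.9.

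The 46 members were given as a list. They, the 37 other replication genes, the 25 mitosis genes, the tests and the rule for naming were chosen with earlier results of these data known. Named with values in every library were the members of each of 9 roles with the largest and smallest change for cisplatin in A549, then in each other comparison the 3 lowest and 3 highest called members and those against the majority, plus CDKN1A, E2F1, E2F7, E2F8 and ELF3-AS1. Further members are named for their role. Alternatives were median ratio scaling, quantile normalization, pseudocounts of 0.1 and 1, other filters on low values, a replicate block, a prior without trend, fits of only the libraries compared, and leaving out each library. Adjacent-gene and pseudogene overlaps came from GENCODE 29, and promoters from RefSeq.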

Additional observations from a re-analysis of the deposited data

Results flagged for a closer look

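The cisplatin change differed between the lines, by the test of the difference itself, for 44 of 46 members. The difference, A549/cDDP minus A549 on the log2 scale, was 2.77 for MCM6, 2.25 for GINS2 and 2.23 for UHRF1, and -0.73 for PCNA, -0.40 for GINS4 and -0.19 for LIG1 (limma adjusted p between 1.17e-11 and 0.0428). CDKN1A differed by -3.96 in the same contrast, and its part was not tested. The cisplatin change also differed between the SCAT7 gapmer and the control gapmer for 6 members, against 0.9% of all genes tested. That difference was 0.47 for UHRF1, 0.44 for FEN1, 0.43 for MCM6, 0.41 for GINS1, 0.34 for MCM7 and 0.31 for CDC6 (limma adjusted p between 0.00475 and 0.0451). None of these 6 calls held under every alternative, and the count was 0 when only the libraries compared were fitted. The difference was positive in 43 of 46 members, called or not, and the median of all genes was -0.02. Members share the same libraries, so their signs are not independent. With 2 libraries a group, no library was tested as an outlier.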

How the results depend on the processing

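Of 7544 member values recomputed under the alternatives, 7251 kept their call or stayed uncalled. Another 266 kept their direction and lost the call, and 27 gained a call in the same direction. Of the values called in either fit, 0 turned round. For values uncalled in both fits, direction was not compared. Counts of called members stayed within 1.5 times for cisplatin in A549, for its difference between the lines, for A549/cDDP against A549 in both media, for both SCAT7 gapmer comparisons and for both transfection comparisons. Within cisplatin in A549, though, higher calls went from 3 to 1 with median ratio scaling or quantile normalization. Counts that moved further were as follows. Fitting only the libraries compared gave 14 called members, against 29, for cisplatin in A549/cDDP, 0 against 12 for cisplatin with the SCAT7 gapmer, and 0 against 6 for the difference between gapmers. A prior without trend gave 2 for both of the last comparisons, and median ratio scaling gave 7 for cisplatin with the SCAT7 gapmer. Fewer libraries in the fit leave fewer degrees of freedom. Leaving out 1 library gave 17 to 26 for cisplatin in A549/cDDP, 1 in every case for the control gapmer, 1 to 12 for the SCAT7 gapmer and 1 to 7 for the difference. The cause was not tested for any of these moves.

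The labels do not state a pairing by replicate number, and with 2 libraries a group the data cannot show whether there was one. Of 28 pairs of groups, 2 had a correlation of same-numbered deviations over 0.1 and 12 were below 0 (range -0.19 to 0.12). Those over 0.1 were A549 cisplatin with A549/cDDP solvent (0.12) and SCAT7 gapmer solvent with SCAT7 gapmer cisplatin (0.11). A replicate block gave 44 called members for cisplatin in A549, 30 in A549/cDDP, 42 for their difference, 10 for cisplatin with the SCAT7 gapmer and 5 for the difference between gapmers. Depth limits ORC1 most, at about 240 fragments in its weakest library.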

Other observations

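The ratio of PCNA to MCM6 was 36.3 and 36.8 in A549 in cisplatin, against 2.55 and 2.48 in A549 in solvent. It was 9.13 and 8.46 in A549/cDDP in cisplatin, against 6.98 and 7.13 in solvent. With the control gapmer it was 6.06 and 5.91 in cisplatin, against 3.88 and 3.85 in solvent, and with the SCAT7 gapmer 6.76 and 6.58 in cisplatin, against 5.82 and 5.77 in solvent. The share of MCM4 in the summed FPKM of MCM2 to MCM7 stayed between 30.2% and 37.8% in all 16 libraries. These values compare FPKM within a library and were not tested.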
